A study of Mus musculus with 6 samples.

Results

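Expression of 29 mouse genes of cholesterol synthesis and sterol handling was described in colon tissue with colitis, with and without the gut bacterium *Bacteroides vulgatus* (*B. vulgatus*). The genes were taken by symbol from a table of 18477 genes, and comprised 18 enzymes of synthesis, 6 regulators and 5 genes of uptake, transport and storage. The set was chosen from the same comparison that is described here, since the difference of Dhcr7, the enzyme of the final reduction to cholesterol, prompted it. The differences between the groups are therefore given as a description of these mice. No p-value is given for Dhcr7.

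The mice were male C57BL/6 animals aged 6 to 8 weeks at purchase, and all had colitis induced with 2% DSS (dextran sulfate sodium, which damages the lining of the colon) in the drinking water from day 8 to day 14. The DSS group (n = 3) received PBS by gavage once a day for 14 days, and the DSS+BV group (n = 3) received *B. vulgatus* in PBS on the same schedule. RNA of the colon tissue of each mouse was sequenced as 1 library. Colons without DSS were not analysed here.

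Cells make cholesterol from acetyl-CoA by way of mevalonate, isoprenoids, squalene and lanosterol, in the cytosol and the endoplasmic reticulum. When membrane sterol is low, SCAP escorts the transcription factors SREBP-1 and SREBP-2 to the Golgi apparatus, where they are cleaved and released to activate the genes of synthesis and of lipoprotein uptake. INSIG proteins hold SCAP in the endoplasmic reticulum when sterol is plentiful, and oxysterols activate the liver X receptors, which promote sterol export. In the intestine, sterol is also absorbed from the lumen, esterified by SOAT enzymes and exchanged with lipoproteins.

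Library totals lay between 15293276 and 17254343 expected counts, and 14579 genes passed the filter on low counts, among them 28 of the 29 members. Values are given as CPM, the normalised read count after scaling of library totals with TMM factors, and are compared between libraries for the same gene. A positive log2 fold change means a higher level in DSS+BV. Its standard error (SE) was derived from the log2 fold change and the F statistic of the edgeR fit over all genes. The SE of Dhcr7 therefore restates its test, and is a description only. Mice of 1 group differed by more than counting noise, as a chi-square of 44.7 to 122.7 for each degree of freedom shows for pairs of libraries. The smallest two-sided p-value that an exact permutation test allows for 1 gene, at 3 against 3 mice, is 0.1. Over all tested genes, DSS 1, DSS 3 and DSS+BV 1 clustered apart from DSS 2, DSS+BV 2 and DSS+BV 3, so the libraries did not separate by group.

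All 18 synthesis enzymes had a higher fitted level in the DSS+BV group, with log2 fold changes from 0.31 for Ebp to 1.24 for Hmgcs1 and a median of 0.90. Without Dhcr7 the median over the remaining 17 was 0.90. Over all tested genes the median was -0.01, and 7078 of 14579 values were above 0. The 6 regulators had a median of 0.27, and the 4 tested genes of uptake, transport and storage had a median of -0.15. In 13 of the 18 enzymes, every DSS+BV mouse exceeded every DSS mouse, where 6.37% of all tested genes did so. The same held for 3 of the 6 regulators and for none of the 4 tested genes of handling. The plot of the members by library shows each mouse against the DSS mean, with 13 of the 18 enzymes wholly to the right of the DSS mice and the other 5 overlapping them.

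**Figure D1:**
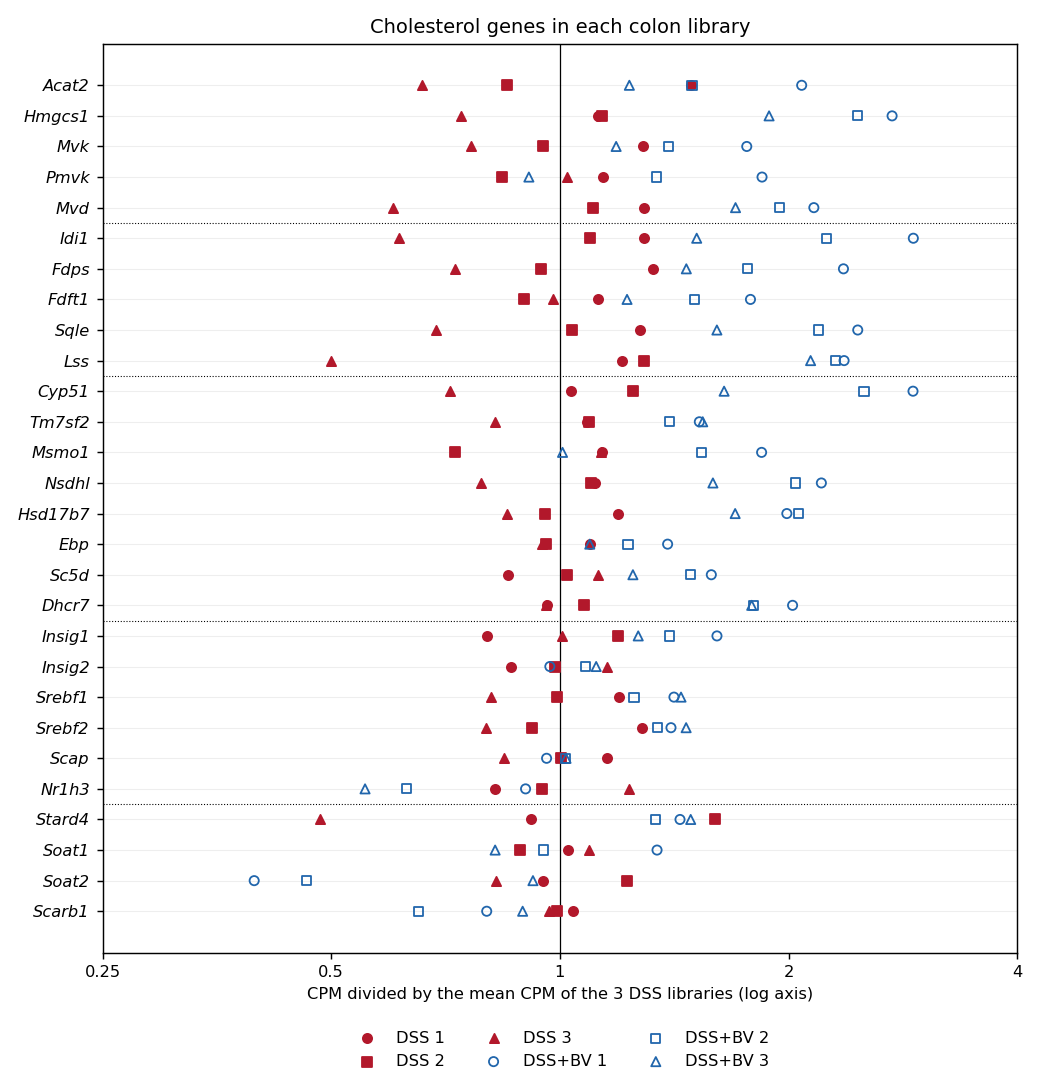
CPM of the 28 tested genes in each of the 6 libraries, divided by the mean CPM of the 3 DSS libraries, on a log axis, with dotted lines between the mevalonate steps, the steps to lanosterol, the steps to cholesterol, the regulators and the handling genes. Blue open symbols (DSS+BV) stand to the right of every red symbol (DSS) in 16 of the 28 genes, and to the left in Scarb1.

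By edgeR with Benjamini-Hochberg adjustment over all tested genes, 0 of the 27 tested members other than Dhcr7 passed an adjusted p-value of 0.05 with a log2 fold change over 1 or under -1, where 0% of all tested genes passed as higher and 0.0892% as lower. The adjusted p-values of these 27 members lay between 0.18 for Hsd17b7 and 0.998 for Scap in the edgeR fit. At an unadjusted p under 0.05 in the same fit, 15 members other than Dhcr7 were higher against 3.4% of all tested genes, and 0 were lower against 9.12%. Every DSS+BV library was above every DSS library in 16 members, against 6.37% of all tested genes, and below in 1 member, against 11.3%. Since the comparison prompted the set, these shares stand beside the counts of members as background only. DESeq2, the tool of the study, called 4 members higher at the same thresholds, where it called 0.291% of the genes with an adjusted p-value. These were Hmgcs1, Sqle, Lss and Cyp51. At an adjusted p under 0.05 without a limit on the fold change, DESeq2 called Nsdhl and Hsd17b7 as well, 6 members other than Dhcr7 against 0.474% of genes.

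The early enzymes lead from acetyl-CoA to mevalonate and its phosphates. Hmgcs1, the cytosolic HMG-CoA synthase (chr13:119690351-119708260, GRCm38.p6), was measured at 249, 252 and 164 CPM in the DSS mice and at 607, 546 and 418 CPM in the DSS+BV mice. The lowest DSS+BV value was above the highest DSS value, the means were 222 ± 49.6 and 524 ± 96.4 CPM (SD, n = 3), and the fitted difference was 2.36-fold (log2 fold change 1.24, SE 0.233). Mvd, which decarboxylates mevalonate diphosphate to isopentenyl diphosphate, was measured at 38.7, 33.2 and 18.1 CPM in the DSS mice. In the DSS+BV mice it reached 64.8, 58.4 and 51.1 CPM, again without overlap, and its log2 fold change was 0.95 (SE 0.284).

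The other early enzymes overlapped between the groups. Acat2, the thiolase that joins 2 acetyl-CoA, was at 52.6, 30.2 and 23.2 CPM in the DSS mice and at 73.5, 52.8 and 43.6 CPM in the DSS+BV mice, where DSS 1 lay above the lowest DSS+BV mouse (log2 fold change 0.68, SE 0.342). Mvk, the mevalonate kinase, was at 23.95, 17.7 and 14.2 CPM against 32.8, 25.9 and 22.1 CPM, also with DSS 1 above DSS+BV 3 (log2 fold change 0.53, SE 0.251). Pmvk, the phosphomevalonate kinase, was at 27.8, 20.5 and 24.98 CPM against 45.1, 32.7 and 22.3 CPM, with DSS+BV 3 inside the DSS range (log2 fold change 0.45, SE 0.276). In these genes the lowest DSS+BV value belonged each time to DSS+BV 3. Acat2 had fractional expected counts, as RSEM gives where reads are divided between genes or transcripts, and rounding moved its counts by at most 0.22.

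The 5 enzymes between isopentenyl diphosphate and lanosterol had no overlap between the groups in any member and the highest median of the parts of the pathway, at 1.06. Idi1, the isopentenyl diphosphate isomerase, was at 148, 125 and 70.3 CPM in the DSS mice and at 334, 257 and 173 CPM in the DSS+BV mice (log2 fold change 1.15, SE 0.343). Its counts were also fractional in part, and rounding moved them by at most 0.46. Fdps, the farnesyl diphosphate synthase, was at 85.3, 60.7 and 46.8 CPM against 152, 114 and 94.3 CPM (log2 fold change 0.90, SE 0.272). Fdft1, the squalene synthase that commits farnesyl diphosphate to sterols, was at 134, 107 and 117 CPM against 213, 180.2 and 147 CPM, the smallest difference of these 5 (log2 fold change 0.59, SE 0.178).

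Sqle, the squalene epoxidase and a rate-controlling oxygenase of the pathway (chr15:59315092-59331193), was at 124, 100.4 and 66.6 CPM in the DSS mice and at 239, 212 and 156 CPM in the DSS+BV mice. The means of 96.8 ± 28.7 and 202 ± 42.4 CPM (SD, n = 3) correspond to a fitted 2.09-fold difference (log2 fold change 1.06, SE 0.268). Lss, the lanosterol synthase that closes the sterol rings (chr10:76531565-76557139), was at 58.1, 62.1 and 24.1 CPM against 114, 111 and 103 CPM. The DSS+BV mice lay close together and DSS 3 lay far below the other DSS mice. The fitted difference of Lss was 2.27-fold (log2 fold change 1.18, SE 0.342), and 0.86 on the log2 scale without DSS 3.

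Of the 8 enzymes from lanosterol to cholesterol, 6 did not overlap between the groups, and the median log2 fold change was 0.74. Cyp51, the lanosterol 14-alpha-demethylase (chr5:4080674-4104697), was at 121, 146 and 84.0 CPM in the DSS mice and at 341, 294 and 193 CPM in the DSS+BV mice, a 2.36-fold difference (log2 fold change 1.24, SE 0.285). Nsdhl, a sterol 4-alpha-carboxylate dehydrogenase (chrX:72918521-72958528), was at 41.8, 41.2 and 29.6 CPM against 82.9, 76.6 and 59.7 CPM (log2 fold change 0.96, SE 0.197). Hsd17b7, the 3-ketosteroid reductase that acts beside it in removing the methyl groups at carbon 4 (chr1:169949535-169969242), was at 27.8, 22.3 and 19.9 CPM against 46.4, 48.2 and 39.7 CPM (log2 fold change 0.94, SE 0.176). Each of these genes was separated by a clear gap between the highest DSS and the lowest DSS+BV mouse.

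Dhcr7, the 7-dehydrocholesterol reductase (chr7:143823167-143848410), was at 67.4, 75.3 and 67.1 CPM in the DSS mice and at 142, 126 and 125 CPM in the DSS+BV mice. The means were 70.0 ± 4.68 and 131 ± 9.31 CPM (SD, n = 3), with a fold of 1.87 (log2 fold change 0.90, SE 0.122). Its SE was the smallest of the 28 members, while 8 of the other enzymes had a larger log2 fold change. Leaving out 1 library at a time moved the value only between 0.86 and 0.97.

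The remaining late enzymes had smaller differences. Tm7sf2, a sterol C14-reductase, was at 15.6, 15.7 and 11.8 CPM against 21.96, 20.1 and 22.2 CPM (log2 fold change 0.57, SE 0.180), without overlap. Sc5d, the lathosterol oxidase that precedes Dhcr7, was at 88.6, 106 and 116 CPM against 164, 154 and 129 CPM (log2 fold change 0.52, SE 0.159), also without overlap. In Sc5d the DSS mouse that was lowest in most other enzymes, DSS 3, was the highest of its group. Ebp, the sterol isomerase that moves the double bond from position 8, was at 72.6, 63.5 and 62.7 CPM against 91.8, 81.4 and 72.5 CPM, where DSS 1 and DSS+BV 3 touched (log2 fold change 0.31, SE 0.138). Msmo1, the methylsterol monooxygenase, was at 179, 115 and 179 CPM against 290.5, 242 and 159 CPM, with DSS+BV 3 inside the DSS range (log2 fold change 0.55, SE 0.277).

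**Figure D2:**
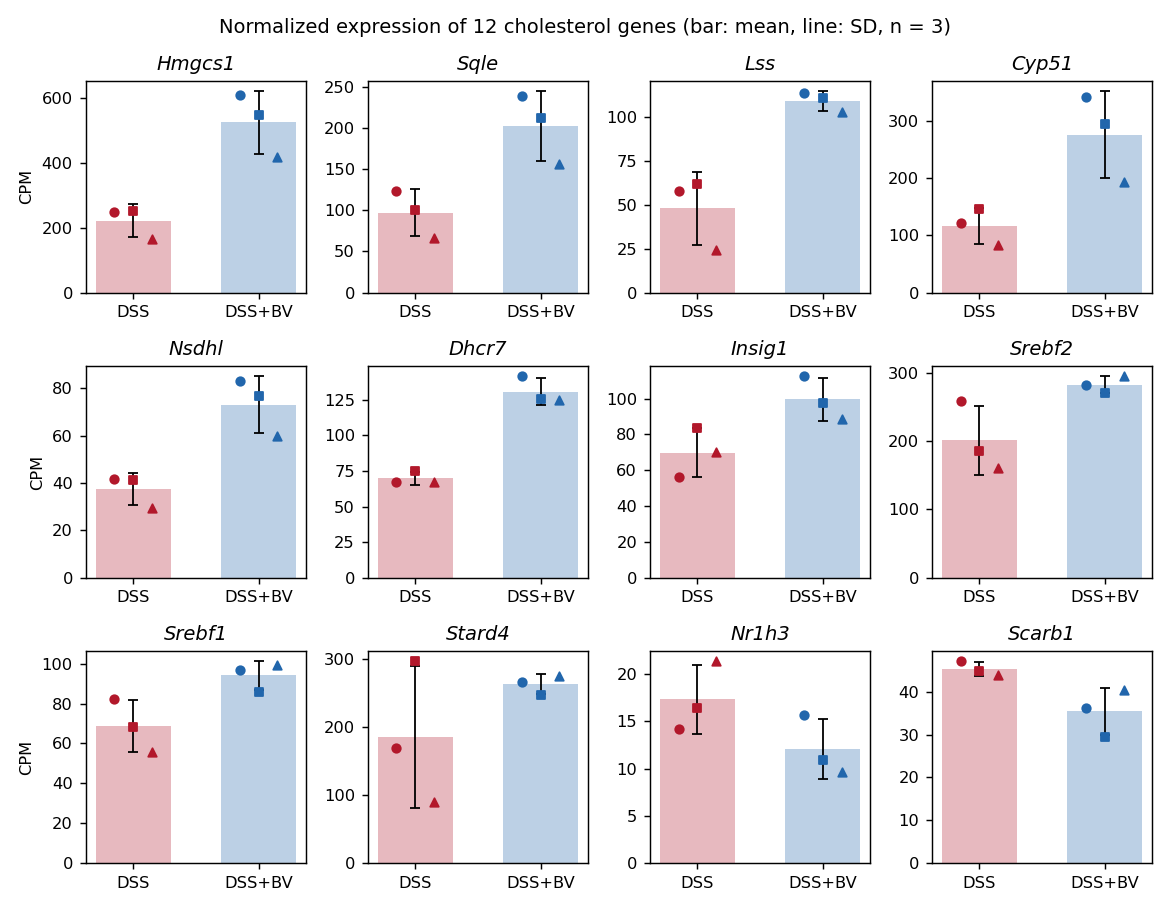
CPM of 12 of the genes in the 3 DSS and 3 DSS+BV libraries (circle, square and triangle for mice 1, 2 and 3), with bars for the group means and lines for the SD. The groups do not overlap in Hmgcs1, Sqle, Lss, Cyp51, Nsdhl, Dhcr7, Insig1, Srebf1, Srebf2 and Scarb1, and overlap in Stard4 and Nr1h3.

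Most pairs of mice shared the direction. In 7 of the 9 pairs of a DSS+BV and a DSS library, all 18 enzymes were higher in the DSS+BV library. The exceptions were DSS+BV 3 against DSS 1, with 13 of 18 enzymes higher and a median log2 ratio of 0.37, and DSS+BV 3 against DSS 3, with 16 of 18 higher and a median of 0.95. The largest median, 1.36, was between DSS+BV 1 and DSS 3. DSS+BV 1 was the highest of the 6 libraries in 16 of the 18 enzymes, and DSS 3 the lowest in 14. Within each cluster of libraries, DSS+BV 1 had all 18 enzymes higher than DSS 1 and DSS 3, and DSS+BV 2 and DSS+BV 3 had all 18 higher than DSS 2. The median log2 ratios were from 0.51 to 1.36 over these 4 pairs. These pairs leave out the exceptions above, and the clusters were drawn from the same libraries. DSS+BV 1 was alone of its group in its cluster, as was DSS 2. The part of the clusters in the enzyme levels was not tested.

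Of the 6 regulators, Srebf1, Srebf2 and Insig1 did not overlap between the groups, and Insig2, Scap and Nr1h3 did. Srebf2, which encodes SREBP-2, the main activator of the synthesis genes (chr15:82147269-82205379), was at 258, 185 and 161 CPM in the DSS mice and at 282, 271 and 295 CPM in the DSS+BV mice. The groups did not overlap, although DSS 1 came near the DSS+BV range (log2 fold change 0.49, SE 0.198). Srebf1, whose product acts more on fatty acid genes, was at 82.2, 68.1 and 55.8 CPM against 97.1, 86.0 and 99.2 CPM, without overlap (log2 fold change 0.45, SE 0.169). Insig1, itself a sterol-regulated gene and a brake on SREBP processing, was at 56.0, 83.4 and 70.3 CPM against 113, 97.5 and 88.6 CPM, without overlap (log2 fold change 0.51, SE 0.182).

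Insig2, the second anchor of SCAP, was at 44.2, 50.4 and 59.0 CPM in the DSS mice and at 49.7, 55.3 and 57.2 CPM in the DSS+BV mice. These ranges overlapped almost wholly (log2 fold change 0.08, SE 0.149). Scap, the escort protein, was at 84.0, 73.0 and 61.4 CPM against 69.9, 74.1 and 74.2 CPM, with all DSS+BV mice inside the DSS range and group means of 72.8 ± 11.3 and 72.7 ± 2.43 CPM (SD, n = 3). Nr1h3, the liver X receptor alpha, was at 14.3, 16.4 and 21.4 CPM against 15.6, 10.9 and 9.61 CPM, where 2 of 3 DSS+BV mice lay below every DSS mouse and DSS+BV 1 did not (log2 fold change -0.53, SE 0.262).

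The genes of uptake, transport and storage had no common direction. Scarb1, the HDL receptor SR-BI (chr5:125277087-125341094), was at 47.2, 45.0 and 43.9 CPM in the DSS mice and at 36.3, 29.6 and 40.5 CPM in the DSS+BV mice. It was the only member with every DSS+BV mouse below every DSS mouse (log2 fold change -0.35, SE 0.154). Stard4, a cytosolic sterol carrier and a known SREBP target, was at 169, 296 and 89.2 CPM in the DSS mice and at 266, 247 and 275 CPM in the DSS+BV mice. The spread of Stard4 within the DSS group, an SD of 104 CPM, exceeded the difference between the means, and the log2 fold change of 0.51 (SE 0.397) ran from 0.17 without DSS 3 to 1.04 without DSS 2.

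Of the sterol esterifying enzymes, Soat1 was at 57.5, 49.7 and 61.3 CPM in the DSS mice and at 75.4, 53.5 and 46.2 CPM in the DSS+BV mice, with overlapping ranges (log2 fold change 0.05, SE 0.206). Soat2, the enterocyte and liver form, was at 2.22, 2.86 and 1.92 CPM against 0.923, 1.08 and 2.15 CPM, where DSS+BV 3 lay among the DSS mice (log2 fold change -0.75, SE 0.422). Npc1l1, the sterol importer of the small intestinal brush border, had 3, 3 and 1 counts in the DSS mice and 3, 8 and 32 in the DSS+BV mice. It did not pass the filter on low counts, and most of its counts in the DSS+BV group came from DSS+BV 3.

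**Figure D3:**
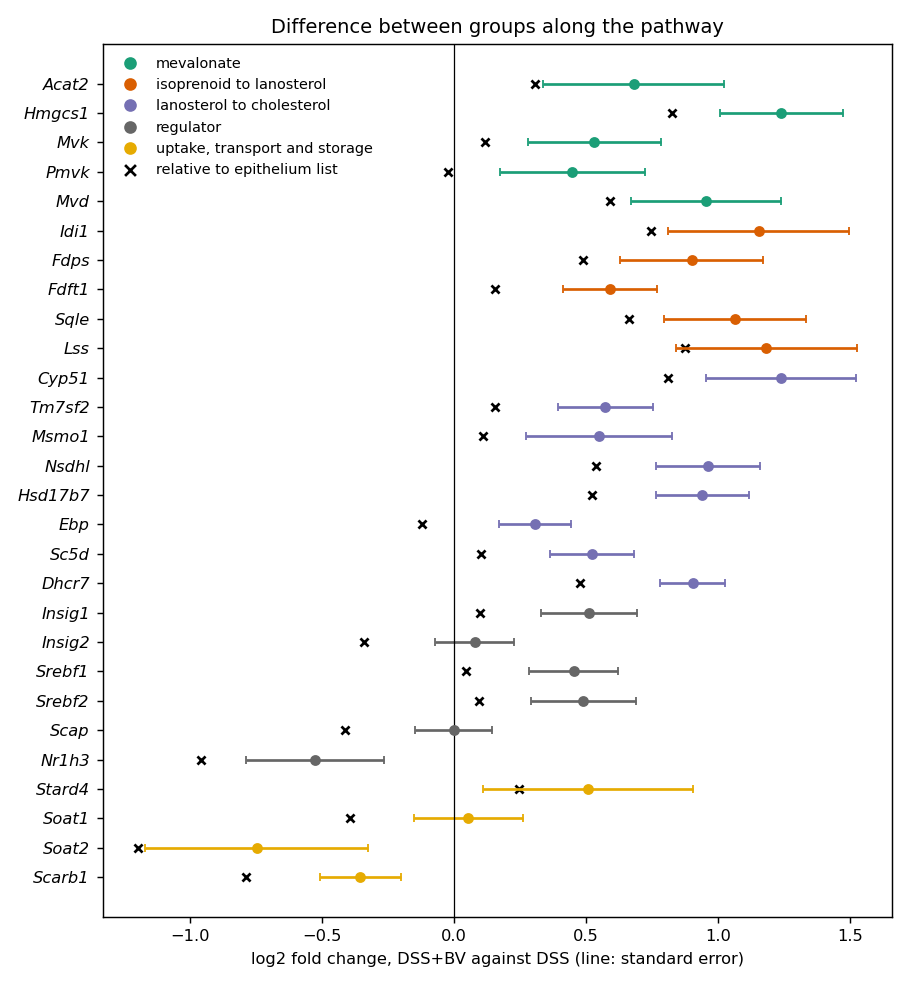
Fitted log2 fold change of DSS+BV against DSS for the 28 tested genes, ordered along the pathway, with lines for the standard error and crosses for the difference relative to 12 epithelial marker genes. All 18 synthesis enzymes lie above 0, and relative to the epithelial genes 16 of 18 do.

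Colon tissue holds several cell types, and in such bulk samples fewer cells of a type and less RNA per cell cannot be told apart. The 12 listed epithelial markers all had log2 fold changes above 0, with a median of 0.40 and 6 without overlap, and their summed level was 13192 to 15572 CPM in the DSS mice and 16954 to 22298 CPM in the DSS+BV mice. The 7 neutrophil markers all were lower in every DSS+BV mouse, with summed levels of 139 to 172 CPM against 12.1 to 23.7 CPM, and 6 of them were called lower by edgeR. The 6 fibroblast markers had a median of -1.03, with summed levels of 3670 to 4039 CPM against 1305 to 1923 CPM. Over all tested genes, every DSS+BV mouse was above every DSS mouse in 6.37% and below in 11.3%, and edgeR called 0.0892% lower. No listed marker of these types was at 0 in every library. Their part in the differences of the cholesterol genes was not tested.

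Set against the epithelial list, as the difference in mean log2 CPM minus that of the 12 epithelial genes, the median of the synthesis enzymes was 0.48 and 16 of 18 stayed above 0. Pmvk was at -0.02 and Ebp at -0.12 on this scale. Every DSS+BV mouse exceeded every DSS mouse on it in 4 members in place of 16, Hmgcs1 at 0.82, Lss at 0.87, Cyp51 at 0.81 and Dhcr7 at 0.48, where 0.357% of all tested genes did so. Every DSS+BV mouse lay below every DSS mouse in 4 members in place of 1, Insig2 at -0.34, Nr1h3 at -0.96, Soat2 at -1.19 and Scarb1 at -0.79, where 36.7% of all tested genes did so. The regulators had a median of -0.15 relative to the epithelial list, with 3 of 6 above 0 and Srebf2 at 0.09. The handling genes had a median of -0.59, with Stard4 alone above 0. This scale was planned for the medians, and the counts of members without overlap on it were added after seeing the data.

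The 6 markers of proliferating cells overlapped between the groups, with 5 of 6 log2 fold changes above 0 and a median of 0.18. Their mean log2 CPM, relative to the 6 libraries, was 1.01 in DSS 1 and -0.67 and -0.98 in DSS 2 and DSS 3, and 0.10, 0.14 and 0.40 in the DSS+BV mice. The mean of the synthesis enzymes on the same scale was -0.17, -0.37 and -0.71 in the DSS mice and 0.66, 0.44 and 0.14 in the DSS+BV mice. Both lists had DSS 1 highest and DSS 3 lowest in the DSS group, and opposite orders in the DSS+BV group. The pair of proximal colon markers, Cyp2c55 and Fabp2, summed to 13.8, 1061 and 84.1 CPM in the DSS mice and to 178, 2984 and 4079 CPM in the DSS+BV mice. The pair of tested distal colon markers summed to 309.9, 37.5 and 168 CPM in the DSS mice and to 309.6, 148 and 0.0632 CPM in the DSS+BV mice. DSS 2, DSS+BV 2 and DSS+BV 3 were high in the proximal markers, DSS+BV 3 was far below the others in the distal ones, and the part of the markers in the enzyme levels was not tested.

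**Figure D4:**
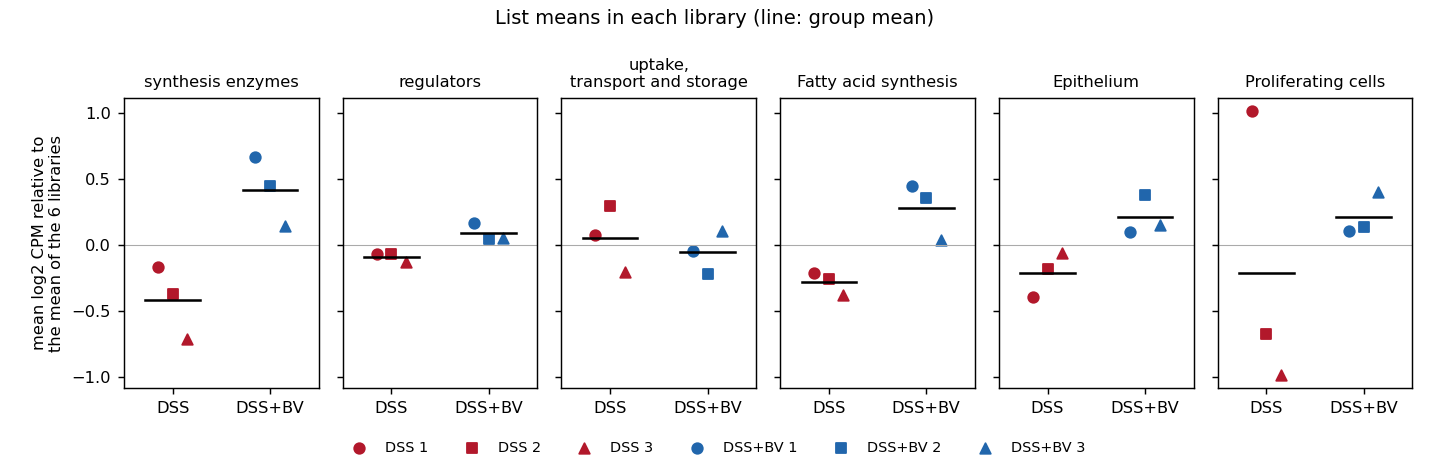
Mean log2 CPM of the genes of 6 lists in each library, relative to the mean of the 6 libraries, with lines for the group means. The synthesis enzymes, the regulators, the fatty acid synthesis genes and the epithelial markers separate the groups, and the handling genes and proliferation markers do not.

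Within the groups, the synthesis enzymes varied together across mice. After each group's mean was removed, the 153 pairs of enzymes had a median Pearson correlation of 0.67 over the 6 libraries, with 137 pairs above 0 and 35.3% over 0.8. Pairs over all tested genes had a median of -0.01, with 7.74% over 0.8. The points are the same 6 libraries, with 4 degrees of freedom after the group means, and share their depth and tissue make-up, so these values describe the libraries only. The regulators had a median of -0.53 over 15 pairs and the handling genes a median of 0.03 over 6 pairs.

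Fdps, Idi1 and Mvk followed the mean of the enzymes most closely, each with a within-group correlation of 0.97. Sc5d stood apart at 0.01, and Tm7sf2 and Dhcr7 were at 0.51 and 0.50. Of the regulators, Insig2 had a correlation of -0.91 with the enzymes, Srebf1 and Srebf2 had 0.55 each, and Insig1 had 0.08. In the DSS+BV group 16 of the 18 enzymes ranked the mice alike, with DSS+BV 1 highest and DSS+BV 3 lowest. The genes outside the set with the most similar within-group pattern were Sh3rf1, Sned1, Plp2, Wtap, Ikzf5, Akr1b3, Ccar1 and Map3k5, with correlations from 0.992 to 0.997. None of these 8 separated the groups, and their log2 fold changes lay between -0.31 and 0.25.

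Promoter sequences of 23 members were read from RefSeq windows of GRCm38.p6, from 250 bases before to 50 after each start site, and searched on both strands for TCACNCCAC, a core of the sterol regulatory element, its relaxed form TCACNCNAC, which holds every match of the first, CCAAT, the box bound by NF-Y, and GGGCGG, the box bound by Sp1. CCAAT was in the windows of 14 of 15 synthesis enzymes (93.3%), all but Acat2, of 4 of 6 regulators and of 2 of 2 handling genes with a window. It was in 41.1% of the 27025 genes with a window and 42.6% of the 11575 tested ones. GGGCGG was in 14 of 15 enzymes, all but Pmvk, against 38.2% and 65.2%. TCACNCCAC was in 1 of 15 enzymes, Hmgcs1, against 1.44% and 1.38%, and TCACNCNAC was in 2, Hmgcs1 and Nsdhl, against 3.15% and 3.26%. A match here is a description of letters in the window, and several genes had more than 1 window. Dhcr7 had 3 windows, with CCAAT only in the window at chr7:143829964-143830263. The 150 bases before that start site were all exon bases of Dhcr7. Fdps, Fdft1, Sqle, Stard4, Soat2 and Scarb1 had no entry.

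**Figure D5:**
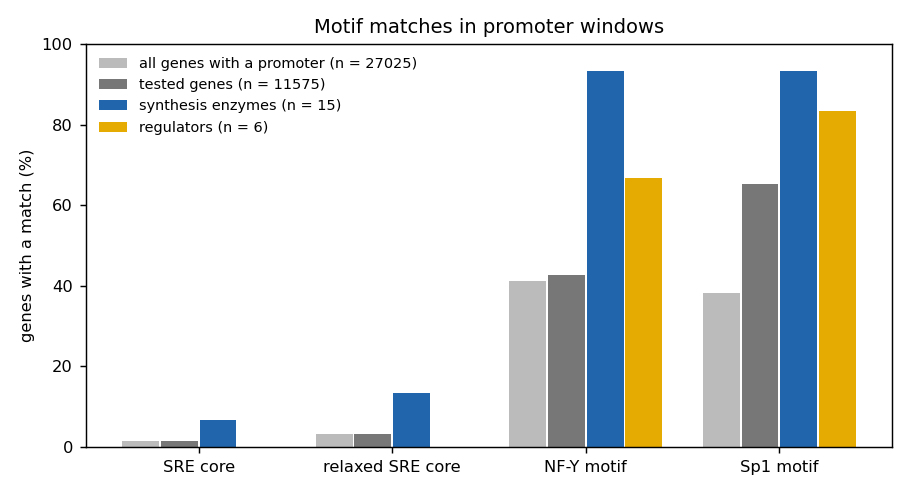
Share of genes with a match of 4 motifs in their promoter windows, for all genes with a window, the tested genes, the 15 synthesis enzymes and the 6 regulators. The synthesis enzymes reach 93.3% for the NF-Y motif, where 42.6% of tested genes have it, and 6.67% for the core of the sterol regulatory element.

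The 150 bases before the start site are shown for 5 enzymes that hold CCAAT there, and for Scap, which has none. Insig2 and Soat1, with log2 fold changes of 0.08 and 0.05, also held CCAAT in their windows, and Acat2, at 0.68, held none. Capitals mark CCAAT or its complement ATTGG, and in Hmgcs1 also the match of TCACNCCAC. None of these stretches holds an annotated exon base. They are Hmgcs1 at chr13:119690201-119690350 on the plus strand, Mvk at chr5:114444119-114444268 on the plus strand, Mvd at chr8:122443423-122443572 on the minus strand and within an intron of Gm20388, Ebp at chrX:8193513-8193662 on the minus strand, Sc5d at chr9:42264301-42264450 on the minus strand, and Scap at chr9:110333138-110333287 on the plus strand.
Hmgcs1: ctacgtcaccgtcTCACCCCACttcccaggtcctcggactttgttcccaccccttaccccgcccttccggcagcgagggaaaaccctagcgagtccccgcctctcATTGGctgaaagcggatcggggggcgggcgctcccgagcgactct
Mvk: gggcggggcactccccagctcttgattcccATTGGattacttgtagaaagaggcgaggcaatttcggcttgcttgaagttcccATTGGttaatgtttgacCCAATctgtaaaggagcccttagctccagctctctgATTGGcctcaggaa
Mvd: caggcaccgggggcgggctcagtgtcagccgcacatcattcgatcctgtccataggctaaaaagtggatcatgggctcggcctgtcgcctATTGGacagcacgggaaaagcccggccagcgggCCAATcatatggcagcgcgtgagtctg
Ebp: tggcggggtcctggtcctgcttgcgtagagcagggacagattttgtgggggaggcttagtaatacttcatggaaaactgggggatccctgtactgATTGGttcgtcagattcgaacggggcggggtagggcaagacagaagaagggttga
Sc5d: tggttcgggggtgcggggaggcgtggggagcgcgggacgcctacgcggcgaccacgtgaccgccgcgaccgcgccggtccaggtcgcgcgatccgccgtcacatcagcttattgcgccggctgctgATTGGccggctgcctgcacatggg
Scap: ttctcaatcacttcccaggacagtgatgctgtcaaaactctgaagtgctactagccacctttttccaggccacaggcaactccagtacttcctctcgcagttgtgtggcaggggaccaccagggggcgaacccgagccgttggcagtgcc
In Hmgcs1 the sterol element core begins at position -137 and the nearest upstream CCAAT complement at -45, counted from the start site. In Mvk, which overlapped between the groups, 4 matches of CCAAT stand in the stretch. Mvd, without overlap, has 2, and Ebp, with the smallest difference of the enzymes, has 1. Whether the matches go with the differences between the groups was not tested.

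Other genes of sterol and lipid metabolism were counted from lists. As background, 6.37% of all tested genes were higher in every DSS+BV mouse and 11.3% were lower. Of 5 further enzymes related to synthesis, all had log2 fold changes above 0, with a median of 0.84, and 3 did not overlap between the groups, among them Aacs, the acetoacetyl-CoA synthetase, at 0.90 (SE 0.310). The 10 genes of the isoprenoid branches, which lead to dolichol, ubiquinone and protein prenylation, had a median of 0.18 and none without overlap. Of 16 genes of lipoprotein uptake and intracellular cholesterol transport, 11 were above 0, 4 did not overlap, all higher in the DSS+BV mice, and the median was 0.17. The 8 genes of SREBP processing had a median of 0.09, and only Syvn1, a ubiquitin ligase of the endoplasmic reticulum, did not overlap (0.34, SE 0.115). None of these genes was called by edgeR or DESeq2.

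Of 8 efflux genes and liver X receptor targets, 6 had log2 fold changes below 0 and the median was -0.54. In every DSS+BV mouse 1 gene was lower and 1 gene higher, against 11.3% and 6.37% of all tested genes. The mean log2 CPM of this list, relative to the 6 libraries, overlapped between the groups, at 0.18, -0.19 and 0.50 in the DSS mice and 0.28, -0.35 and -0.40 in the DSS+BV mice. The 6 markers of macrophages and monocytes stood at 0.51, -0.10 and 0.86 against 0.40, -0.77 and -0.89 on the same scale, with summed levels of 613 to 1355 CPM against 389 to 1032 CPM and no marker at 0, and their part in these values was not tested. The gene that was higher was Lpcat3, a phospholipid acyltransferase, at 0.50 (SE 0.139). Of the 5 tested oxysterol and bile acid enzymes, 3 were below 0 and the median was -0.08. Cyp7b1, the oxysterol 7-alpha-hydroxylase, was at 5.45, 8.83 and 10.7 CPM in the DSS mice and at 1.78, 2.29 and 2.02 CPM in the DSS+BV mice, without overlap (log2 fold change -2.03, SE 0.328, adjusted p of edgeR 0.14). DESeq2 called Cyp7b1 lower, as it did 275 of the 14579 genes tested by edgeR. No gene of these lists was called by edgeR.

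Fatty acid synthesis, the other arm of SREBP control, had 10 of 12 genes above 0 and a median of 0.65. Fasn, the fatty acid synthase, was at 241, 179 and 85.8 CPM in the DSS mice and at 335, 285 and 282 CPM in the DSS+BV mice, without overlap (log2 fold change 0.83, SE 0.355). Acaca, the acetyl-CoA carboxylase, was at 83.0, 72.4 and 40.8 CPM against 120.0, 102 and 94.0 CPM, also without overlap (log2 fold change 0.69, SE 0.269). Neither passed the edgeR threshold, with adjusted p-values of 0.40 and 0.39.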

How the data were processed

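The authors sequenced colon RNA of 3 DSS and 3 DSS+BV mice (SMARTER mRNA-seq libraries, DNBSEQ-T7) and deposited RSEM expected counts per gene, unscaled, in 1 table with Entrez numbers. The submitters' processing notes name HISAT2 2.1.0, Bowtie2 2.2.5, RSEM 1.2.8 and GRCm38.p6, without their roles. Columns were matched to mice by their titles.

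Counts were rounded, genes kept with filterByExpr (minimum count 10, minimum total 15) and groups compared with TMM factors and the quasi-likelihood test of edgeR 4.0.16 (R 4.3.3), adjusted over 14579 genes and called where the adjusted p was under 0.05 and the log2 fold change was past 1 in either direction. The biological coefficient of variation was 32.1% and the prior degrees of freedom 2.68. Totals per library are given as a range. Log2 CPM for list means used a prior count of 2. The edgeR test was checked on simulated counts in which genes were drawn independently, and DESeq2 was not checked in this way.

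Members and all gene lists were chosen with earlier results of these data known. All members are named. Of each other list, up to 3 genes without overlap between groups and with the smallest p were to be named, and the 8 genes most correlated with the enzymes. Not every gene of these lists is reported here. P-values set the difference between the groups against the spread between 3 mice per group, with that spread moderated over genes. The mice were selected at random from each group per the labels. Gene positions, names and promoter windows came from RefSeq, GRCm38.p6. The exons and introns at the stretches before the start sites came from the GENCODE annotation. The alternatives tried were upper-quartile and RLE scaling, DESeq2 1.42.0, filters that kept every gene with a count or a CPM over 1 in 3 libraries, a replicate block, the epithelial scale, means for medians, rank correlation and each library left out. Figures were drawn with matplotlib 3.10.9.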

Additional observations from a re-analysis of the deposited data

How the results depend on the processing

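The 13 genes called over the whole table became 327 with DESeq2 and 0 with the replicate number as a block, and ranged from 0 to 7 with each library left out (7 without DSS+BV 1, 1 without DSS 2 and 0 without any other). The number of members called was 4 with DESeq2 against 0, and 0 with the block. The median of the synthesis enzymes was 0.90 and moved to 0.48 relative to the epithelial list. The median of the regulators was 0.27 and moved to -0.15 relative to the epithelial list and to 0.17 with the mean in place of the median. The median of the handling genes was -0.15 and moved to 0.075 with DESeq2, to 0.083 with every gene with a count kept, both of which take in Npc1l1, and to -0.59 relative to the epithelial list. The 16 members higher in every DSS+BV mouse became 4 relative to the epithelial list, and those lower in every DSS+BV mouse became 4 in place of 1. The median within-group correlation of the enzymes was 0.67 and lay between 0.65 and 0.82 with each library left out, with the upper value without DSS 2. Beyond this, the cause was not tested. Of the 28 tested members, 25 kept the sign of their log2 fold change in all 12 alternative fits, while Scap turned in 8, Soat1 in 2 and Insig2 in 1. The epithelial scale is not among these fits. On that scale Pmvk (-0.02), Ebp (-0.12), Insig2 (-0.34) and Soat1 (-0.40) turned from above 0 to below 0. Same-numbered libraries had correlations of 0.27, 0.25 and -0.30 in their deviations from the group means, so the numbers were not taken to pair the mice. Without Dhcr7, and with each library left out of the count of members higher in every DSS+BV mouse (16 to 21), the values came from alternatives chosen after seeing the data. Depth limits Npc1l1, which had 1 to 32 counts per library.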

Other observations

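Markers of further cell types that a piece of colon can hold were read in the same fit, as medians of the log2 fold changes of DSS+BV against DSS. The 7 markers of absorptive colonocytes had a median of 0.18 and the 6 of goblet cells a median of -0.16, with no gene without overlap in either. The 6 markers of macrophages and monocytes were all below 0, with a median of -0.79. In every DSS+BV mouse 1 of them was lower, against 11.3% of all tested genes. The 5 markers of B and plasma cells had a median of -0.84 with overlap throughout, and the 4 tested markers of T cells had a median of 0.07.

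Among the other tissue layers, the 4 endothelial markers had a median of -0.65, with 2 of them lower in every DSS+BV mouse. The 6 markers of enteric glia and neurons had a median of -1.30, with 5 of 6 lower in every DSS+BV mouse, where 11.3% of all tested genes were. Their summed levels were 40.7 to 123 CPM in the DSS mice and 27.4 to 28.8 CPM in the DSS+BV mice. The 5 smooth muscle markers had a median of -0.11 with overlap throughout. The 3 tested adipocyte markers had a median of -1.35, and the pair of tested distal colon markers a median of -0.30. For the pair of proximal colon markers the median was 2.08, with overlap between the groups. By edgeR none of these genes was called. DESeq2 called 3 of the 6 markers of enteric glia and neurons and 1 of the 6 of macrophages and monocytes lower. It called 1 of the 7 markers of absorptive colonocytes higher. Of the 14579 genes tested by edgeR, DESeq2 called 275 lower and 44 higher. The part of these markers in the differences of the cholesterol genes was not tested.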
